A study of Mus musculus with 5 samples.

Results

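Liver sinusoidal endothelial cells (LSECs) line the capillaries of the liver lobule, and 1687 of 48533 kept nuclei were taken as LSEC nuclei, chosen by the measured UMI counts of marker transcripts. The nuclei came from frozen livers of male wild-type C57BL6/J mice, in 3 libraries from mice on regular chow (Chow 1 to Chow 3) and 2 libraries from mice on a MASH diet (MASH 1 and MASH 2). MASH is metabolic dysfunction-associated steatohepatitis, and this diet supplied 40% of its calories as fat and 20% as fructose, with 2% cholesterol. Feeding began at 10 to 12 weeks of age and lasted 5 months, and the mice carried no transgene or deletion. The sources used here do not state whether a library held 1 mouse or a pool of mice, so the spread between libraries may be partly technical.

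LSECs differ from other endothelium in having open pores without a diaphragm and no continuous basement membrane, so that plasma reaches the hepatocytes directly. They take up waste molecules from blood through scavenger receptors such as stabilin-1 and stabilin-2 and the Fc receptor encoded by Fcgr2b. They also release signals to neighboring cells, among them the Wnt ligand Wnt2 near the central vein and the bone morphogenetic proteins Bmp2 and Bmp6, which drive hepcidin production in hepatocytes. In chronic liver disease LSECs can lose their pores and gain features of ordinary capillaries, a change called capillarization that is usually followed by the surface protein CD34, the diaphragm protein PLVAP and basement membrane collagens.

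A nucleus was counted as LSEC when it had at least 300 detected genes and under 10% mitochondrial unique molecular identifiers (UMIs, each standing for 1 captured RNA molecule), no UMI of Hnf4a (hepatocytes), Ptprc (leukocytes), Pkhd1 (cholangiocytes), Col3a1 (mesenchymal cells) or Vwf (vascular endothelium), and at least 1 UMI in at least 2 of Stab2, Stab1, Clec4g, Ptprb, Ehd3 and Kdr. At least 1 of the transcripts seen also had to be Stab2, Clec4g or Stab1. Chow 1, Chow 2 and Chow 3 held 521, 144 and 281 LSEC nuclei, and MASH 1 and MASH 2 held 217 and 524. The summed LSEC counts were 854652, 275316 and 444403 UMIs in the chow libraries and 461936 and 941901 UMIs in the MASH libraries, so Chow 2 gave the least precise levels. The median LSEC nucleus had 967 to 1345 UMIs by library, against 1893 to 3781 UMIs for the median barcode of the same libraries, and no LSEC nucleus shared its barcode with an LSEC nucleus of another library.

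LSEC nuclei made up 6.42% (exact 95% binomial interval 5.90 to 6.98), 1.27% (1.08 to 1.50) and 2.63% (2.33 to 2.95) of kept nuclei in Chow 1, Chow 2 and Chow 3. In MASH 1 and MASH 2 they made up 2.84% (2.48 to 3.24) and 4.86% (4.46 to 5.28). These intervals cover counting error only. The groups overlapped, with a mean of 3.44 ± 2.67% (SD, n = 3) on chow and 3.85 ± 1.43% (SD, n = 2) on the MASH diet, and the difference of 0.409 percentage points did not pass a two-sided exact permutation test (p = 0.8, where 3 against 2 libraries cannot go below 0.1). Requiring 3 markers turned the difference to -0.429 points, and the direction also turned without Chow 2 (-0.674) or without MASH 2 (-0.599), so no direction can be given for the share. The nuclei were sorted before loading, and all shares are of what was loaded: in the same libraries Hnf4a-positive nuclei averaged 49.7% on chow and 13.3% on the MASH diet.

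The marker rule chose the nuclei, so the levels of its own genes are given as a description without a test. On average a chow LSEC nucleus showed 4.03, 3.47 and 3.61 of the 6 markers, and a MASH LSEC nucleus 2.98 and 3.17. Just inside the threshold, with exactly 2 markers, were 63, 37 and 64 chow nuclei and 90 and 176 MASH nuclei. Just outside it, with exactly 1 marker that was Stab2, Stab1 or Clec4g, were 158, 124 and 124 chow nuclei and 298 and 474 MASH nuclei. These were deeper nuclei (library medians of 2184 to 3042 UMIs, against 1019 to 1317 UMIs just inside). Nuclei whose only marker was Ptprb, Ehd3 or Kdr were not counted here. Most nuclei that met the marker rule and carried an excluded transcript were lost to Hnf4a on chow (431 of 1068, 210 of 373 and 230 of 561), whereas on the MASH diet Ptprc removed more than any other gene (303 of 711 and 438 of 1388).

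Levels below are UMIs of a gene for every 1e+06 UMIs of the LSEC nuclei of a library (CPM) in the order Chow 1, Chow 2, Chow 3, MASH 1 and MASH 2. Clec4g, a C-type lectin of the sinusoid encoded at chr8:3707064-3720651 (GRCm38), was at 524, 363, 887, 154 and 201 CPM, with both MASH libraries under every chow library. Ehd3, an endocytic recycling protein encoded at chr17:73804134-73832094, was at 892, 483, 639, 186 and 247 CPM, again without overlap. Ptprb, the vascular endothelial protein tyrosine phosphatase, was at 1587, 1082, 1442, 610 and 1037 CPM, and Kdr, the main receptor for vascular endothelial growth factor, was at 544, 432, 504, 288 and 397 CPM. These 4 genes were thus lower in each MASH library than in each chow library, with log2 differences of -1.85 for Clec4g, -1.70 for Ehd3, -0.83 for Ptprb and -0.62 for Kdr. The stabilin genes overlapped between diets: Stab2 was at 954, 425, 495, 457 and 746 CPM and Stab1 at 975, 527, 758, 565 and 718 CPM.

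**Figure D1:**
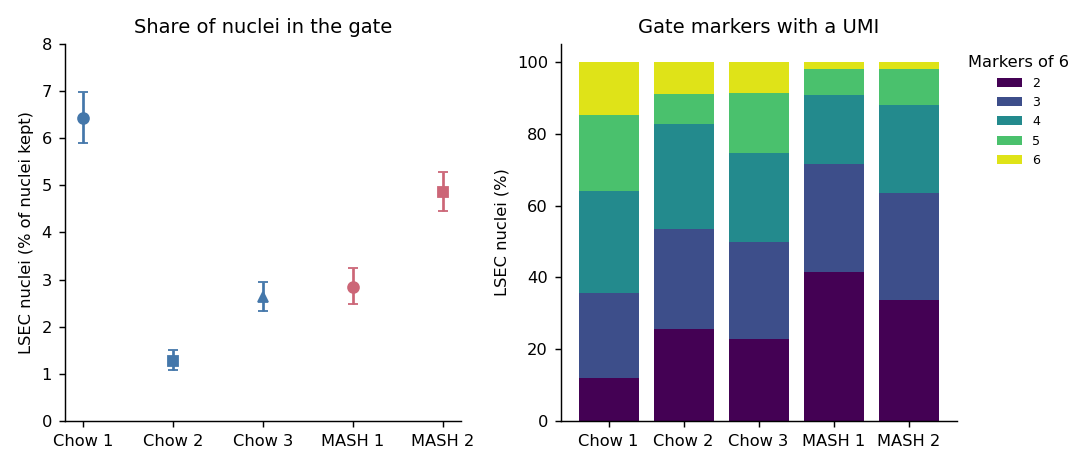
Left, share of kept nuclei counted as LSEC in each library (percent, bars are exact 95% binomial intervals). Right, LSEC nuclei of each library (percent, stacked) by how many of the 6 gate markers had a UMI. The chow shares of 1.27% to 6.42% span the MASH shares of 2.84% and 4.86%, and the bottom segment, nuclei with exactly 2 markers, is taller in both MASH libraries than in any chow library.

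Most LSEC markers that the rule did not use were higher in these nuclei than in other nuclei. Of 19 listed LSEC scavenger and identity genes 17 had enough counts to be tested. Of these, 15 had a mean level at least 2 times that in nuclei with a UMI of Hnf4a, Ptprc, Col3a1 or Pkhd1 and none of the 6 markers. Il1r1 was not among the 15, at 388 CPM in chow Hnf4a-positive nuclei. The most abundant of the 17 was Fcgr2b at 741, 363, 689, 329 and 482 CPM. Transcripts of other cells were also present. Hepatocyte markers (15 of 15 detected) summed to 22633 to 50243 CPM on chow and 12802 to 21178 CPM on the MASH diet, the largest sum of any marker list of other cells in every library. Kupffer and macrophage markers (13 of 13) summed to 122 to 380 CPM on chow and 323 to 684 CPM on the MASH diet, and stellate markers (12 of 12) to 348 to 511 CPM and 405 to 492 CPM. Cholangiocyte markers (8 of 8) summed to 31.6 to 69.8 CPM on chow and 429 to 672 CPM on the MASH diet, and lymphocyte markers (8 of 11, with Pax5, Nkg7 and Skap1 at 0) to 3.63 to 12.9 CPM and 71.4 to 80.7 CPM, both without overlap. A single gene held most of each MASH sum: Spp1 gave 349 and 558 CPM of the cholangiocyte sums and Themis 49.8 and 71.1 CPM of the lymphocyte sums. Markers of other vascular endothelium (12 of 12) summed to 558 to 934 CPM and 675 to 795 CPM, those of lymphatic endothelium (6 detected, with Ccl21a at 0) to 222 to 491 CPM and 468 to 522 CPM, and erythroid markers (5 of 5) to 198 to 331 CPM and 104 to 156 CPM.

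The question of the diet comparison was which transcripts of LSEC nuclei differed between MASH and chow livers. Summed counts were compared over the 5 libraries with edgeR's quasi-likelihood test, in which 87 of 8132 genes passed a Benjamini-Hochberg adjusted p of 0.05 (1.07% of genes tested), 44 of them higher (0.541%) and 43 lower (0.529%) on the MASH diet. At an unadjusted p under 0.05 there were 1067 genes, and the DESeq2 Wald test called 154. The number of calls depended on the libraries kept: leaving out Chow 2 left 7, while leaving out Chow 1 or Chow 3 gave 111 and 173. Leaving out MASH 1 or MASH 2 lost most calls. Such fits keep 1 library on that diet, so they cannot show whether a call rested on a single library. With 2 MASH libraries the design gives the test little to estimate spread from, and a gene without a call may still differ.

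The called genes were for the most part not genes led by LSECs. Of the 44 genes higher on the MASH diet, 39 had a level in LSEC nuclei at or below that of at least 1 of the 4 other nuclear classes of the same diet (Hnf4a-, Ptprc-, Col3a1- and Pkhd1-positive nuclei, all without any of the 6 LSEC markers), and 21 of these were highest in Hnf4a-positive nuclei. The 5 others were Ly6d, Sema3b, Scd2, Apoa4 and Ccn2. Of the 43 lower genes 35 were at or below another class on chow, and those above every other class included the major urinary protein genes Mup1, Mup7, Mup11, Mup12 and Mup17 and the cytochrome P450 genes Cyp2c29 and Cyp2c37, which hepatocytes are known to express and which stood within 1.27-fold of the next class.

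To describe transcripts led by LSECs as a group, genes with a mean level in LSEC nuclei at least 2 times that of each of the 4 other classes were set apart, without the marker genes of the gate. This choice was made after the data were seen and gets no test. Of these 320 LSEC-led genes 255 (79.7%) had a log2 fold change below 0, against 51.3% of all genes tested, with a median of -0.51 against -0.02. Both MASH libraries lay under all chow libraries for 44 of them (13.8%, against 11.2% of all genes) and above for 16 (5.0%, against 17.8%). EdgeR called 1 of them, 45 were lower and 8 higher at an unadjusted p under 0.05, and DESeq2 called 4.

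The LSEC-led genes made up 4.35%, 2.41% and 4.74% of LSEC UMIs on chow and 2.18% and 3.41% on the MASH diet, so Chow 2 lay between the MASH libraries. Their median difference was -0.30 without Chow 3, -0.33 without MASH 1 and -0.82 without MASH 2. It was -0.33 when 3 markers were required and -0.15 when nuclei were thinned to 500 UMIs before they were chosen. When library sizes were taken from the LSEC-led genes themselves, a scaling chosen after the data were seen, the median over all genes moved from -0.02 to 0.41 and 85 genes were called (1.05%), 62 higher (0.762%) and 23 lower (0.283%), while the LSEC-led median moved with it, from -0.51 to -0.07. The direction of a single LSEC gene in CPM is therefore relative to all RNA in these nuclei, hepatocyte RNA included.

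**Figure D2:**
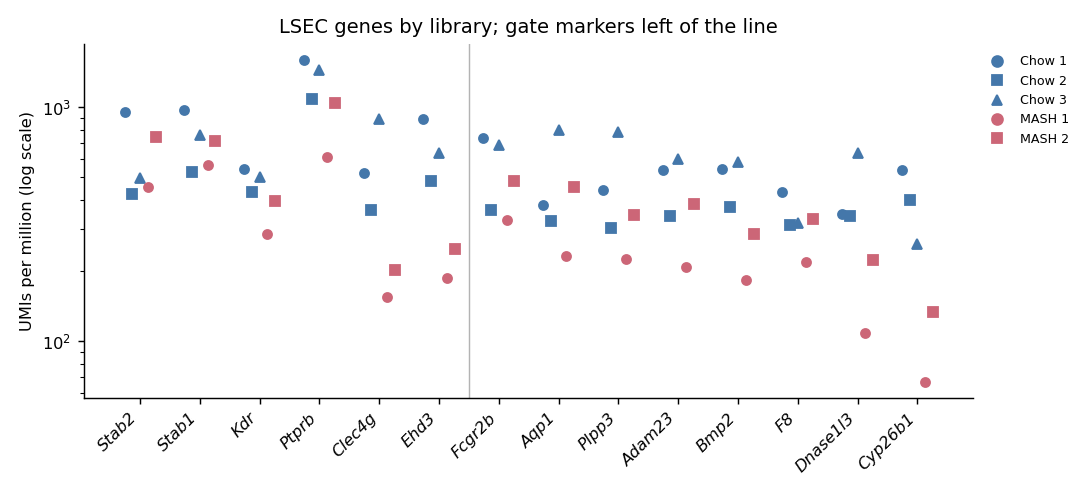
Level in LSEC nuclei (CPM, log axis), 1 point per library, for the 6 gate markers left of the line and 8 other LSEC genes right of it. Cyp26b1 reads 261 to 541 CPM on chow and 67.1 and 134 CPM on the MASH diet, while the points of Stab2, Stab1 and Fcgr2b overlap between the diets.

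All 17 tested scavenger and identity genes had a log2 fold change below 0 (median -0.70), but edgeR and DESeq2 each called 0 of them and 4 were lower at an unadjusted p under 0.05. Of the 17, 2 were lower without overlap, against 11.2% of all genes tested. The first was Dnase1l3, a secreted nuclease that clears DNA from blood, at 348, 341, 637, 108 and 222 CPM (log2 difference -1.54 ± 0.48, SE, adjusted p = 0.191, edgeR). The other was Bmp2 at 545, 374, 581, 182 and 286 CPM (-1.19 ± 0.40, adjusted p = 0.223). Fcgr2b overlapped between the diets and differed by -0.65 ± 0.42 (adjusted p = 0.551), as did the water channel gene Aqp1 (-0.67), Plpp3 (-0.95), Adam23 (-0.83) and the coagulation factor gene F8 (-0.45).

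Genes shared by endothelial cells were described in the same way. Of 16 tested members 13 were below 0 (median -0.42), and edgeR and DESeq2 called 0, with 2 lower at an unadjusted p under 0.05. Flt1, a receptor and decoy for vascular endothelial growth factor, was at 234, 225, 601, 110 and 189 CPM (-1.37 ± 0.53, adjusted p = 0.300, edgeR), and the coreceptor gene Nrp1 was at 817, 400, 502, 219 and 367 CPM (-1.04 ± 0.41, adjusted p = 0.314). In both the MASH libraries lay under the chow libraries.

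Among 15 transcription factors of LSECs 13 were below 0 (median -0.57), and neither edgeR nor DESeq2 called any, with 2 lower at an unadjusted p under 0.05. Maf, a factor that sets LSEC identity, was the most abundant at 1810.1, 701, 1599.9, 628 and 998 CPM and overlapped between the diets (-0.83 ± 0.49, adjusted p = 0.509, edgeR). Tfec was at 84.2, 47.2, 74.3, 23.8 and 26.5 CPM without overlap (-1.54 ± 0.37, adjusted p = 0.0883). Klf2, which responds to blood flow, was at 70.2, 58.1, 149, 41.1 and 53.1 CPM, with the MASH libraries just under the lowest chow library (-1.07 ± 0.47, adjusted p = 0.360).

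Further LSEC-led transcripts were lower in both MASH libraries without passing the test. Cyp26b1, an enzyme that breaks down retinoic acid, was at 541, 400, 261, 67.1 and 134 CPM (-2.06 ± 0.44, adjusted p = 0.0508, edgeR), and its mean in every other class was at most 8.48 CPM. Bmp6 was at 39.8, 25.4, 54.0, 6.49 and 15.9 CPM (-1.81 ± 0.52, adjusted p = 0.152). Fam167b, whose function is less well described, was at 88.9, 40.0, 128, 10.8 and 23.4 CPM (-2.36 ± 0.53, adjusted p = 0.0630). All 3 were lower in each MASH library than in each chow library.

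**Figure D3:**
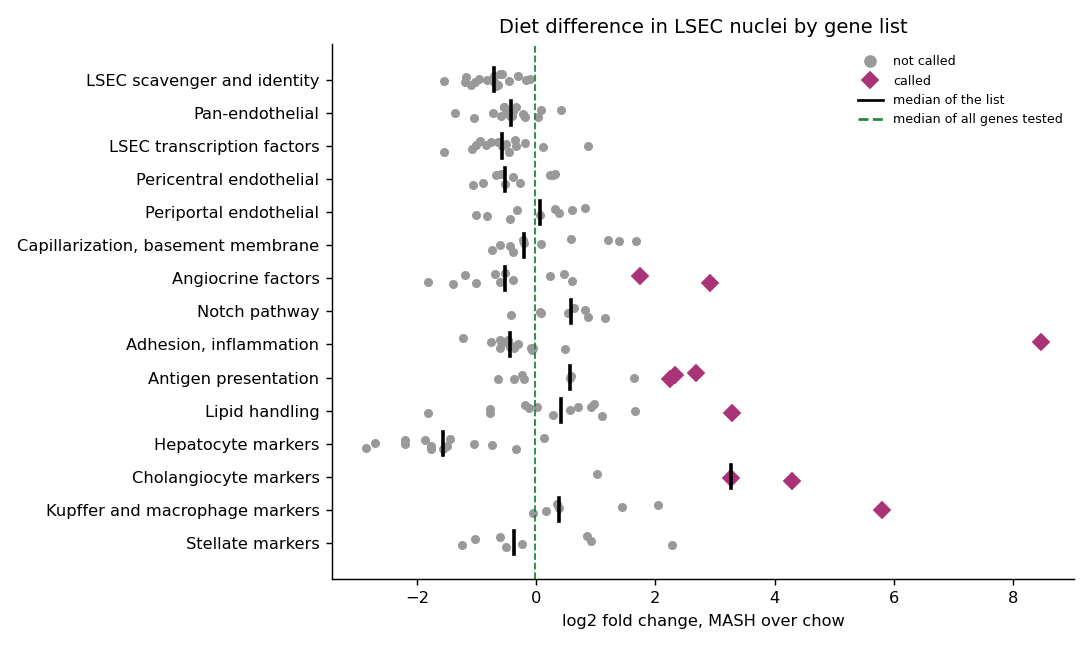
Log2 fold change (MASH over chow) in LSEC nuclei of the tested members of each list, 1 point per gene, with diamonds for called genes, a black bar for the list median and a dashed line for the median of all genes tested. The identity list has all of its 17 members below 0, and the Notch and antigen presentation lists have medians of 0.59 and 0.57. The diamond farthest to the right is Mmp12, which was at 0 in all chow libraries, so its position depends on the prior count of the fit.

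Genes of capillarization were examined next. Of 20 listed genes 11 could be tested, 5 were above and 6 below 0 (median -0.20), and edgeR and DESeq2 called 0, with 3 higher at an unadjusted p under 0.05. Cd34 was at 4.68, 10.9, 20.3, 23.8 and 36.1 CPM (log2 difference 1.39 ± 0.62, adjusted p = 0.372, edgeR), so the MASH libraries lay above the chow libraries by little more than the chow libraries differed among themselves. Plvap was at 38.6, 58.1, 63.0, 82.3 and 84.9 CPM (0.58 ± 0.38, adjusted p = 0.560). The tetraspanin gene Cd9, at 23.4, 21.8, 29.3, 60.6 and 60.5 CPM (1.20 ± 0.37, adjusted p = 0.196), and the vasoconstrictor gene Edn1, at 19.9, 7.26, 2.25, 30.3 and 44.6 CPM (1.67 ± 0.57, adjusted p = 0.230), were the 2 other members higher without overlap. In all, 4 of the 11 tested members were higher without overlap, against 17.8% of all genes tested. Plvap was also found in Col3a1-positive nuclei, at 219 CPM on chow and 137 CPM on the MASH diet. Cd9 was higher on the MASH diet in all 4 other classes too, with means of 48.4 and 63.8 CPM in Ptprc-positive nuclei. The basement membrane genes among the tested members included Col4a1 and Hspg2, whose directions depended on the setting, so no difference is given for them.

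The same question was put to single nuclei for 12 genes, as the share of LSEC nuclei with a UMI after each nucleus was thinned to 500 UMIs, which no LSEC nucleus fell short of. Cd34 was seen in 0.192% of nuclei in Chow 1 (exact 95% interval 0.00486 to 1.06), 0.694% in Chow 2 (0.0176 to 3.81), 1.07% in Chow 3 (0.221 to 3.09), 1.84% in MASH 1 (0.504 to 4.65) and 2.86% in MASH 2 (1.61 to 4.68). These shares are 1, 1, 3, 4 and 15 nuclei. Plvap was seen in 3.07% (1.77 to 4.94), 2.78% (0.762 to 6.96) and 3.56% (1.72 to 6.45) of chow nuclei and in 3.69% (1.60 to 7.13) and 6.30% (4.37 to 8.73) of MASH nuclei. The MASH libraries lay above the chow libraries for both genes, but most of the intervals overlapped.

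Cd36, the fatty acid translocase and a scavenger receptor, was seen in 7.87% (5.71 to 10.5), 2.08% (0.432 to 5.97) and 9.96% (6.72 to 14.1) of chow LSEC nuclei and in 15.7% (11.1 to 21.2) and 18.9% (15.6 to 22.5) of MASH LSEC nuclei. Its mean share was 6.64 ± 4.08% (SD, n = 3) on chow and 17.3 ± 2.28% (SD, n = 2) on the MASH diet, and in Hnf4a-positive nuclei thinned alike the means were 0.796% and 2.71%. Without thinning the LSEC means were 16.7% and 38.0%. Cd34, Plvap and Cd36 were the 3 of 12 genes without overlap, each with p = 0.1 in a two-sided exact permutation test, the smallest value possible, and an adjusted p of 0.4 over the 12 genes. Lack of overlap was common: in CPM 17.8% of all genes tested were higher and 11.2% lower without overlap. The count of 3 is therefore not read as a result about these genes. Cd34 in Hnf4a-positive nuclei was at 0% on chow and 0.0805% on the MASH diet, and Plvap at 0.136% and 0.343%. When nuclei with a UMI of 8 further genes of macrophages, stellate cells and cholangiocytes were also removed, an alternative chosen after the data were seen, Cd36 alone stayed without overlap, at 7.67% on chow and 19.6% on the MASH diet.

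**Figure D4:**
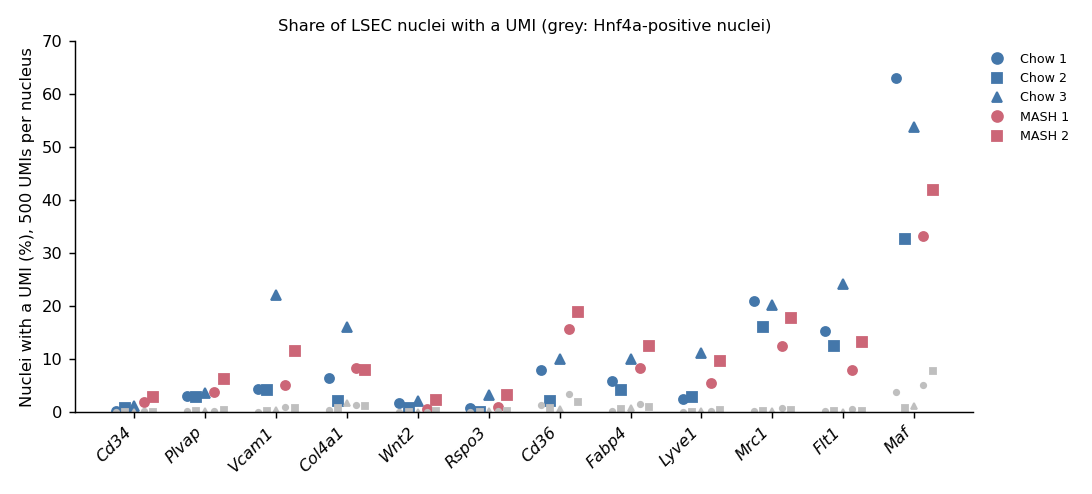
Share of nuclei with at least 1 UMI (percent, after thinning to 500 UMIs) for 12 genes, 1 point per library, with colored points for LSEC nuclei and small grey points for Hnf4a-positive nuclei. Cd36 lies at 2.08% to 9.96% in chow and 15.7% to 18.9% in MASH LSEC nuclei, and Maf is the most often seen gene in LSEC nuclei, at 32.6% to 63.1% on chow.

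LSECs differ along the lobule, so genes of its 2 ends were described apart. Of 11 tested pericentral endothelial genes 8 were below 0 (median -0.52), and of 9 tested periportal genes 4 were (median 0.07). EdgeR and DESeq2 called 0 in both lists, and 0 members passed an unadjusted p of 0.05. Wnt2 was at 30.4, 25.4, 31.5, 10.8 and 29.7 CPM, with MASH 2 inside the chow range (-0.52 ± 0.48, adjusted p = 0.713, edgeR). Msr1, a scavenger receptor in the periportal list, was at 65.5, 47.2, 85.5, 104 and 113 CPM (0.61 ± 0.36, adjusted p = 0.514). Nuclei with transcripts of pericentral genes alone made up 6.94% to 13.2% of chow and 12.9% to 13.2% of MASH LSEC nuclei, and those with periportal genes alone 27.1% to 36.7% and 30.9% to 32.3%, so both groups overlapped.

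Genes for signals that LSECs release gave 2 calls among 13 tested, both higher and both also called by DESeq2. Ccn2, a matricellular growth factor encoded at chr10:24595442-24598683, was at 64.4, 29.1, 54.0, 158 and 199 CPM (1.74 ± 0.36, adjusted p = 0.0448, edgeR). Its mean in Col3a1-positive nuclei was 104 CPM on chow and 141 CPM on the MASH diet, and it kept its call under 11 of 16 other settings and in 1 of 5 fits without a library. Nrg1, which encodes the ligand neuregulin 1, was at 16.4, 7.26, 13.5, 110 and 103 CPM (2.92 ± 0.38, adjusted p = 0.0062), beside 7.45 and 203 CPM in Hnf4a-positive nuclei. Igf1 was at 495, 530, 270, 178 and 170 CPM and was not called (-1.39 ± 0.41, adjusted p = 0.169), beside 719 and 234 CPM in Hnf4a-positive, 574 and 229 CPM in Ptprc-positive and 782 and 240.2 CPM in Pkhd1-positive nuclei.

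Lists of vascular growth and flow signaling held no call by edgeR or DESeq2. Of 10 tested angiogenesis genes 8 were below 0 (median -0.24, 2 lower at an unadjusted p under 0.05), and of 12 genes of nitric oxide, shear and bone morphogenetic protein signaling 10 were (median -0.32, with 1 higher and 2 lower). In the Notch pathway 7 of 8 tested genes were above 0 (median 0.59), edgeR and DESeq2 called 0, and 0 passed an unadjusted p of 0.05. Its receptor gene Notch1 was at 165, 102, 200, 245 and 239 CPM and its ligand gene Jag1 at 24.6, 36.3, 24.8, 41.1 and 60.5 CPM, both without overlap, with log2 differences of 0.53 ± 0.37 (adjusted p = 0.585) and 0.82 ± 0.40 (adjusted p = 0.418, edgeR). Of the 8, 4 were higher without overlap, against 17.8% of all genes tested. Notch1 and Jag1 were also higher on the MASH diet in all 4 other classes. Mean Notch1 was 20.5 and 98.1 CPM in Hnf4a-positive nuclei, and mean Jag1 was 20.9 and 90.3 CPM in Pkhd1-positive nuclei.

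Class II genes of antigen presentation rose together, with 3 called. LSECs can present antigen to T cells, and major histocompatibility complex (MHC) class II molecules are alpha and beta chain pairs that show peptides to CD4+ T cells. H2-Aa, the alpha chain of I-A encoded at chr17:34282744-34287823, was at 10.5, 10.9, 22.5, 95.3 and 99.8 CPM and rose by 2.68 ± 0.43 on the log2 scale (adjusted p = 0.0132, edgeR). H2-Ab1, its beta chain partner at chr17:34257689-34269419, was at 10.5, 18.2, 24.8, 77.9 and 99.8 CPM (2.32 ± 0.44, adjusted p = 0.0328). H2-Eb1, the beta chain of I-E at chr17:34305867-34316674, was at 10.5, 18.2, 13.5, 71.4 and 60.5 CPM (2.24 ± 0.43, adjusted p = 0.0344). For all 3 the lower MASH library lay above the highest chow library.

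The neighboring class II genes H2-Aa and H2-Eb1 are transcribed from promoters that hold the Y box, an inverted CCAAT element known from class II promoters. The 120 bases before each start are shown 5′ to 3′ on the gene's strand (RefSeq, GRCm38.p6), with the letters CTGATTGG in capitals, at 51 to 44 bases before the start of H2-Aa (chr17:34287824-34287943, minus strand) and 62 to 55 bases before that of H2-Eb1 (chr17:34305747-34305866, plus strand).
H2-Aa: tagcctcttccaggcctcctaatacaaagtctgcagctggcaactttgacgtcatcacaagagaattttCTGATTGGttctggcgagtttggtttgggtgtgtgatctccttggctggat
H2-Eb1: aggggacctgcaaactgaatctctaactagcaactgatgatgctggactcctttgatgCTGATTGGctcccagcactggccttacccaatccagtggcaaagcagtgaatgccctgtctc
Searched on both strands of the 250 bases before the start, these letters occurred in 1258 of 32851 promoters (3.83%), in 414 of 8318 promoters of the genes tested (4.98%), in 6 of 37 promoters of genes called higher and in 0 of 33 of genes called lower. The promoter of H2-Ab1 was not analysed here. A match describes the letters in this window and says nothing of a factor bound there.

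Cd74, the invariant chain that escorts class II molecules, was at 25.7, 40.0, 69.8, 171 and 126 CPM, above chow in both MASH libraries but not called (1.64 ± 0.46, adjusted p = 0.148, edgeR). The class I gene H2-D1 was at 364, 374, 884, 403 and 356 CPM and overlapped (-0.63 ± 0.49, adjusted p = 0.639). H2-K1 and B2m of the same list overlapped between the diets as well. In all, 3 of 10 tested genes of the list were called, against 0.541% of all genes called higher, and 6 were higher without overlap, against 17.8% of all genes. The median was 0.57.

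The class II transcripts were not particular to LSEC nuclei. On chow and MASH diet in turn, mean H2-Aa was 403 and 445 CPM in Ptprc-positive nuclei, 25.0 and 64.4 CPM in Col3a1-positive nuclei, 5.82 and 31.9 CPM in Pkhd1-positive nuclei and 2.96 and 23.5 CPM in Hnf4a-positive nuclei. The diet difference in LSEC nuclei was therefore set against that of other classes of the same libraries with a class by diet term. Against Ptprc-positive nuclei the difference was larger in LSEC nuclei by 2.58 ± 0.37 for H2-Aa (adjusted p = 0.000726), 2.86 ± 0.35 for H2-Ab1 (adjusted p = 0.000224) and 2.59 ± 0.39 for H2-Eb1 (adjusted p = 0.00108, edgeR), where 25 of 9217 genes were called in all (0.271%, with 0.152% higher and 0.119% lower in LSEC nuclei). Against Hnf4a-positive nuclei it did not pass the test for any of the 3 (0.12 ± 0.49, 0.10 ± 0.49 and -0.31 ± 0.52). Nor were the 3 called against Col3a1-positive nuclei. There only 1 of the genes called higher in LSEC nuclei was also called, Anxa2.

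H2-Aa stayed called under 15 of 15 other settings, H2-Ab1 under 11 of 15 and H2-Eb1 under 12 of 16, but in only 2, 1 and 1 of 5 fits that left out a library. Kupffer and macrophage markers in the LSEC sums were at 122 to 380 CPM on chow and 323 to 684 CPM on the MASH diet. With nuclei holding a UMI of the 8 further genes removed, these markers were at 36.8 to 64.2 CPM and 124 to 145 CPM. The removal takes out every nucleus with Clec4f, Cd5l, Adgre1 or Csf1r, which are themselves among the summed markers. Part of the drop is therefore set by the filter, so the drop cannot measure the macrophage part of the class II levels. The part of macrophage transcripts in the class II levels was not tested.

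**Figure D5:**
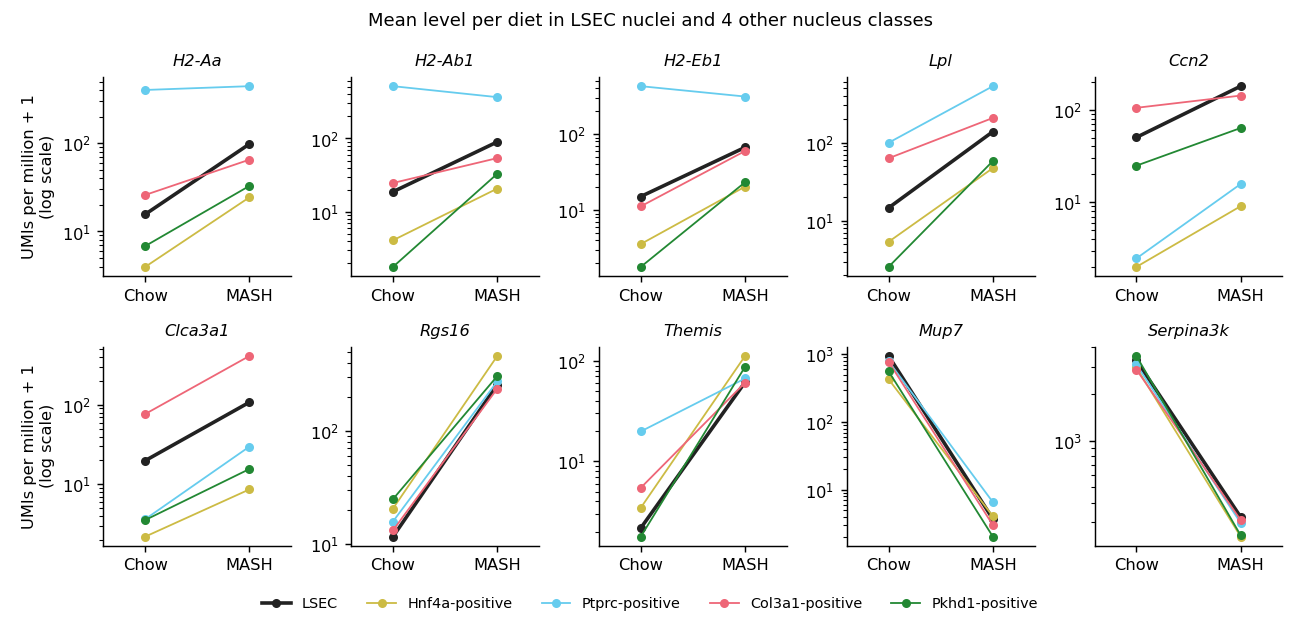
Mean level (CPM plus 1, log axis, a different range in each panel) on chow and MASH diet for 10 called genes, with a line for LSEC nuclei and for each of the 4 other classes. H2-Aa is highest in Ptprc-positive nuclei on both diets (403 and 445 CPM), Clca3a1 in Col3a1-positive nuclei (75.7 and 411 CPM), and the lines of Rgs16, Mup7 and Serpina3k run close together in all classes.

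Lipid handling genes gave 1 call among 14 tested (median 0.42), with 7 higher and 1 lower without overlap, against 17.8% and 11.2% of all genes. Lpl, lipoprotein lipase, encoded at chr8:68880491-68907448, was at 3.51, 3.63, 33.8, 141 and 135 CPM (3.29 ± 0.68, adjusted p = 0.0461, edgeR), with Chow 3 well above the other chow libraries. Its mean on the MASH diet was 529 CPM in Ptprc-positive and 207 CPM in Col3a1-positive nuclei, above that in LSEC nuclei. Cd36 was at 124, 61.7, 180, 262 and 303 CPM (1.10 ± 0.42, adjusted p = 0.295), and Scarb1, the high-density lipoprotein receptor, at 242, 211, 176, 381 and 459 CPM (0.92 ± 0.34, adjusted p = 0.279). Cd36 and Scarb1 were also higher on the MASH diet in all 4 other classes. Mean Cd36 was 32.9 and 110 CPM in Ptprc-positive nuclei, and mean Scarb1 was 278 and 587 CPM in Hnf4a-positive nuclei. Apoe was at 4107, 6763, 8348, 4840 and 3310 CPM and overlapped.

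Clca3a1, a secreted chloride channel accessory protein encoded at chr3:144729677-144760977, was at 14.0, 29.1, 13.5, 84.4 and 130 CPM (2.55 ± 0.43, adjusted p = 0.0162, edgeR). It kept its call under 16 of 16 other settings but in 1 of 5 fits that left out a library, and Col3a1-positive nuclei held more of it, at 75.7 CPM on chow and 411 CPM on the MASH diet. Adhesion and inflammation genes gave 1 call among 16 tested, Mmp12, a macrophage elastase, at 0 CPM in all chow libraries and 119 and 32.9 CPM in the MASH libraries, at least 32.1-fold higher against 3 UMIs over the chow group. Mmp12 averaged 255 CPM in Ptprc-positive nuclei on the MASH diet.

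The largest differences in LSEC nuclei were those of transcripts abundant in other cells. Rgs16, a regulator of G protein signaling, was at 5.85, 14.5, 11.3, 223 and 286 CPM (4.66 ± 0.46, adjusted p = 0.00294, edgeR), beside 457 CPM in MASH Hnf4a-positive nuclei, and it was called in all 5 fits that left out a library. Gdf15, a stress cytokine, was at 12.9, 14.5, 15.8, 158 and 96.6 CPM (3.09 ± 0.42, adjusted p = 0.0062), beside 234 CPM. Spp1, osteopontin, was at 3.51, 25.4, 40.5, 349 and 558 CPM (4.29 ± 0.69, adjusted p = 0.0132), beside 1919 CPM in MASH Pkhd1-positive nuclei. In each case the class named held more than LSEC nuclei.

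Themis, which tunes signals from the T cell receptor in developing T cells, was at 3.51, 0, 0, 49.8 and 71.1 CPM, from 3 UMIs on chow and 90 on the MASH diet, a ratio of 33.6 with an exact 95% interval of 11.2 to 166. Its MASH mean was 111 CPM in Hnf4a-positive, 86.6 CPM in Pkhd1-positive and 65.9 CPM in Ptprc-positive nuclei. Gpnmb, a lysosomal glycoprotein of macrophages, was at 0, 0, 2.25, 45.5 and 51.0 CPM, from 1 and 69 UMIs, beside 233 CPM in MASH Ptprc-positive nuclei. Cd163, a hemoglobin scavenger receptor of macrophages, went the other way, at 23.4, 18.2, 49.5, 2.16 and 0 CPM, from 47 and 1 UMIs. The pooled level of Cd163 was 41.9 times lower on the MASH diet (exact 95% interval 7.16 to 1690).

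Of the 5 higher genes whose LSEC level exceeded every other class, Apoa4, an apolipoprotein, was at 8.19, 32.7, 56.3, 446 and 234 CPM, beside 302 to 336 CPM in the other MASH classes. Scd2, a fatty acid desaturase, had 6, 1 and 4 UMIs on chow and 17 and 56 UMIs on the MASH diet, and its mean MASH level of 48.1 CPM stood beside at most 47.9 CPM in the other classes. Ly6d was at 1.17, 0, 4.50, 162 and 49.9 CPM and Sema3b at 1.17, 0, 0, 45.5 and 25.5 CPM, with MASH means of up to 93.7 and 33.1 CPM in the other classes. None of the 5 stood more than 1.27-fold above the next class.

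Of the 43 lower genes 12 were highest in Hnf4a-positive, 13 in Pkhd1-positive, 5 in Ptprc-positive and 5 in Col3a1-positive nuclei. Pkhd1-positive nuclei on chow also held transcripts known from hepatocytes, such as Mup7 at 562 CPM, so the 13 are not read as cholangiocyte genes. Mup7 fell from 422, 1104 and 1319 CPM to 4.33 and 1.06 CPM, beside 430 and 3.06 CPM in Hnf4a-positive nuclei, and Serpina3k was at 2489, 3974, 3396, 435 and 207 CPM (-3.46 ± 0.62, adjusted p = 0.022, edgeR), beside 2960.1 and 240.1 CPM. In the hepatocyte marker list 11 of 15 tested genes were lower without overlap, against 11.2% of all genes tested, and 11 at an unadjusted p under 0.05. EdgeR called 0 of the 15 and DESeq2 called 7. How far free RNA in the droplets accounts for these transcripts was not tested.

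The diet difference of LSEC nuclei was last compared with that of Hnf4a-positive nuclei across all genes. The class by diet term was called for 463 of 13396 genes (3.46%), 105 with a higher (0.784%) and 358 with a lower (2.67%) difference in LSEC nuclei. The split depended on the scaling: with DESeq2 size factors 44 were higher and 435 lower. Among the 320 LSEC-led genes 85 were called, 81 of them lower. The median LSEC-led gene went from 66.2 to 50.4 CPM in LSEC nuclei and from 0.979 to 2.14 CPM in Hnf4a-positive nuclei, where 265 of the 320 were higher on the MASH diet, so the term joins a lower level in LSEC nuclei with a higher one, of small amounts, in Hnf4a-positive nuclei.

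Against Col3a1-positive nuclei 26 of 9118 genes were called (0.285%, with 0.11% higher and 0.175% lower), among them Anxa2 with a difference larger in LSEC nuclei by 3.50 ± 0.48 (adjusted p = 0.000153, edgeR).

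Genes called both in LSEC nuclei and against Hnf4a-positive nuclei were 5. As a ratio of MASH to chow, Rad51b, a DNA repair gene, rose less in LSEC nuclei (5.85, 3.63, 2.25, 47.6 and 43.5 CPM) than in Hnf4a-positive nuclei (means of 0.928 and 95.0 CPM), as did Anxa2, which binds membranes (14.0, 3.63, 11.3, 75.8 and 51.0 CPM, beside 1.43 and 48.9 CPM), and Nrg1. Socs2, an inhibitor of growth hormone signaling, fell less in LSEC nuclei (221, 185, 146, 32.5 and 63.7 CPM, beside 248 and 17.9 CPM), as did the growth factor receptor gene Egfr (284, 846, 576, 84.4 and 74.3 CPM, beside 1409 and 103 CPM). The ratios of Rad51b and Anxa2 in Hnf4a-positive nuclei rest on chow levels near 0, and in CPM the rise of Anxa2 was not smaller in LSEC nuclei. The terms were -2.75, -2.26 and -1.74 for the first 3 and 2.10 and 1.30 for the last 2 (adjusted p of 0.0239, 0.00265, 0.0128, 6.62e-06 and 0.0212, edgeR).

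Of the remaining lists, mesenchymal transition genes (8 tested, median 0.21) and endocytosis and lysosome genes (13 tested, median -0.21) had 0 calls by edgeR, and DESeq2 called 1 gene in the first and Cd63 in the second, with 2 higher in each at an unadjusted p under 0.05. The stress and cell cycle list gave 1 call, Gdf15, among 10 tested (median 0.46). Without overlap, 3 of the 8 mesenchymal genes and 2 of the 13 lysosome genes were higher, against 17.8% of all genes tested. In both lists 0 were lower without overlap, against 11.2%.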

How the data were processed

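Deposited files were filtered count matrices of UMIs per gene and barcode, which the authors made from 10x Genomics Chromium 3′ libraries with Cell Ranger 8.0.1 and GRCm38 (submitters' processing notes) and, per the study's methods, without intronic reads. No normalized values were used. Depth was 35612373 to 49137377 UMIs per library. The study's doublet calls were not used here, and the highest Scrublet scores were removed as an alternative.

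Counts of the gated nuclei were summed per library and tested with edgeR 4.0.16 (R 4.3.3; TMM, filterByExpr, quasi-likelihood) and, as alternatives, DESeq2 1.42.0 and others listed in the closing section. P-values measure only the spread between libraries, which may be technical. Permutation tests were two-sided. Antisense and overlapping genes, and the near-identical Mup, Cyp2c and MHC genes, may share reads.

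Genes named were those of the gate, called or most abundant list members, the called genes with the largest changes (at most 12 each way at or above the Hnf4a-positive level and 5 otherwise), and 5 each way called also in the interaction. Cyp26b1, Fam167b, Tfec, Bmp6, Cd9, Edn1, Cd34, Plvap, Cd36, Dnase1l3, Cd74, Wnt2, Msr1, Jag1 and Clca3a1, where outside that rule, were chosen after their values were seen. The members and lists were chosen with earlier results of these data known. Some calls are not reported here. Steps were tested on simulated data. Gene positions are of GENCODE vM21 (GRCm38).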

Additional observations from a re-analysis of the deposited data

Results flagged for a closer look

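The difference between the diets was tested against that in Hnf4a-positive nuclei of the same libraries, and this test of the difference itself brought up 463 genes, of which 5 were also called in LSEC nuclei alone. Of the 5, 3 rose less as a ratio in LSEC nuclei than in Hnf4a-positive nuclei, with a class by diet term of -2.75 for Rad51b, -2.26 for Anxa2 and -1.74 for Nrg1 on the log2 scale. The other two fell less, with terms of 1.30 for Egfr and 2.10 for Socs2. LSEC nuclei were higher than Hnf4a-positive nuclei in Socs2 on the MASH diet, at 32.5 and 63.7 CPM beside a mean of 17.9 CPM.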

How the results depend on the processing

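The difference in LSEC share of 0.409 percentage points turned to -0.429 with 3 markers required, -0.397 without nuclei holding 8 further genes of other cell types, -0.169 after thinning to 500 UMIs before the gate and -0.786 with the first 2 together (chosen after the data were seen), and ran from -0.674 to 1.90 when 1 library was left out. The 87 calls became 30 after thinning before the gate, 453 without a filter on low counts, 154 with DESeq2, 55 without genes higher in Hnf4a-positive nuclei, 47 with 3 markers and without the 8 genes, and 1 to 173 when 1 library was left out (7 without Chow 2, 173 without Chow 3, 1 without MASH 1, 5 without MASH 2). With the replicate number as a block there were 140 calls. Deviations of same-numbered libraries from their group means had correlations of -0.219 and -0.269. The deviations of 2 MASH libraries mirror each other, so this check cannot settle whether the numbers pair the samples. The class by diet term gave 25 calls against Ptprc-positive and 26 against Col3a1-positive nuclei (both chosen after the data were seen), and the 463 (105 higher, 358 lower) became 479 with DESeq2 size factors (44 and 435), 417 with another filter on low counts (34 and 383), 539 without one (57 and 482), 328 with DESeq2 (18 and 310), 162 without MASH 1, 184 without MASH 2 and up to 580 without Chow 2. The 3 genes without overlap in the share with a UMI became 5 without thinning, 1 without the 8 genes and 6 to 8 without Chow 2, Chow 3, MASH 1 or MASH 2. The share difference turned to 0.512 points for Mrc1 with 3 markers and to 0.546 for Col4a1 without the 8 genes, and with 1 library left out it ran from -5.15 to 3.97 for Vcam1, -3.11 to 3.85 for Col4a1, -1.06 to 0.771 for Wnt2 and -0.402 to 1.92 for Rspo3. Stab2, Stab1, Col4a1 and Hspg2 turned direction in at least 1 setting and are given without a fold change, so the genes printed with one were picked for keeping theirs. The causes were not tested. Depth limits rare transcripts: in Chow 2 a share of 0 of 144 nuclei would allow up to 2.08%.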
